A study of Mus musculus with 11 samples.

Results

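The stearoyl-CoA desaturase genes of the mouse, Scd1 (ENSMUSG00000037071), Scd2 (ENSMUSG00000025203), Scd3 (ENSMUSG00000025202) and Scd4 (ENSMUSG00000050195), were taken by symbol. They are 4 of the 55414 genes in the count table, and all 4 had enough counts to be tested. RNA was sequenced from whole livers of 11 male mice, all of the genotype Clec4f-DTR, a line in which Kupffer cells, the resident macrophages of liver, bear a receptor for diphtheria toxin (DT) driven by the Clec4f promoter. Diets began at an age of 8 weeks and lasted 16 weeks. One group of 3 mice ate chow (chow livers). A group of 4 mice ate western diet with alcohol and received serial saline injections (saline livers), and another 4 mice ate the same diet and received serial DT injections (DT livers). The labels name no injection for the chow mice, so diet, alcohol and injection cannot be told apart in comparisons with chow. They also do not say how many cages or litters the mice came from, so p-values measure the spread between these livers only.

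Stearoyl-CoA desaturases are iron enzymes of the endoplasmic reticulum that place a double bond at the delta-9 position of saturated fatty acyl-CoA and so make oleate and palmitoleate from stearate and palmitate. They take electrons from cytochrome b5 and its reductase, and their products are esterified into triglycerides, phospholipids, cholesterol esters and wax esters. Scd1 is the main form in adult mouse liver and a known target of the lipogenic transcription factor SREBP-1c (encoded by Srebf1) and of liver X receptors (LXR, encoded by Nr1h3 and Nr1h2). Scd2 is known from brain and from neonatal tissues, Scd3 from skin and the Harderian gland, and Scd4 from heart.

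The 4 coding sequences are close relatives, which matters for counting reads per gene, so 2 stretches of 60 bases are shown from the GENCODE M21 transcripts. Aligned over the coding sequence, 91.5% of bases were identical between Scd3 and Scd1, 90.3% between Scd2 and Scd1 and 85.1% between Scd4 and Scd1. The first stretch (bases 586 to 645 of the Scd1 coding sequence) was identical in all 4 genes, so a short read lying within it matches every member.
All 4 genes: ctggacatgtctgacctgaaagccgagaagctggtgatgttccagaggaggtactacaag
The second stretch (bases 295 to 354 of the Scd1 coding sequence) was the least alike, and capitals mark the bases that differ from Scd1.
Scd1: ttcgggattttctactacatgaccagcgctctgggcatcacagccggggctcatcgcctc
Scd2: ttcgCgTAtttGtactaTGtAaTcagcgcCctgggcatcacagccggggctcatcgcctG
Scd3: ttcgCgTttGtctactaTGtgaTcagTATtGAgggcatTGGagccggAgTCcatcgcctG
Scd4: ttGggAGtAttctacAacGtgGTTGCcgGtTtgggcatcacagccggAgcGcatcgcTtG
Here Scd2 differed from Scd1 at 10 of 60 bases, Scd3 at 18 and Scd4 at 17. The longest run of bases shared with Scd1 was 185 bases in Scd3, 147 in Scd2 and 116 in Scd4. Of all runs of 50 bases in the Scd3 transcript, 4.85% also occurred in Scd1, against 2.68% for Scd2 and 2.58% for Scd4. How multi-mapping reads were counted is not given in the sources used here. Values of Scd2, Scd3 and Scd4 are therefore uncertain by the reads that these shared runs could assign to another member.

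The start regions of Scd3 and Scd4, which rose and fell together in the comparisons described here, were available from RefSeq (GRCm38.p6). Each window runs from 250 bases before to 50 bases after the gene's start, and capitals mark matches to CANNTG, the E-box, which was searched on both strands and reads the same pattern on either.
Scd3, chr19:44203038-44203337, plus strand: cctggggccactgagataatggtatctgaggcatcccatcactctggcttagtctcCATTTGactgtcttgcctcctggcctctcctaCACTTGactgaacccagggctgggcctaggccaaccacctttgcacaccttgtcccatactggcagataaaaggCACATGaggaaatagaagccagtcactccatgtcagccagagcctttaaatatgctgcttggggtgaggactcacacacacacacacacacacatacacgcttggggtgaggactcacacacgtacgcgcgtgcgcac
Scd4, chr19:44333076-44333375, plus strand: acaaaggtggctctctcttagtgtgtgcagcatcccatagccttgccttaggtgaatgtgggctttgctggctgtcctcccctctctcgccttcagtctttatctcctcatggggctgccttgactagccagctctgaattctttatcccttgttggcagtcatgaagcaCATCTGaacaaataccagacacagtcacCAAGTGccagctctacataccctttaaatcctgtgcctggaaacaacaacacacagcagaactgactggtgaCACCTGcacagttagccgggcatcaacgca
Both windows held 3 matches, and 72.3% of 32851 promoter windows of the same length held at least 1. No letters TATAAA (in 13.6% of windows), CCAAT (37.4%) or TCACNCCAC, a core of the sterol regulatory element (1.24%), were found in either window on either strand. Only E-box letters were found, so no matches of different motifs overlapped, and the matches describe the windows only.

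The livers gave between 43995217 and 58089531 counts, of which 3 counts correspond to 0.0398 to 0.0773 CPM. CPM here are library-size normalised counts after TMM scaling. Of 28842 genes with any count, 17038 were tested. A gene is called, and said to have risen or fallen, when its Benjamini-Hochberg adjusted p in edgeR's quasi-likelihood test was below 0.05. The label of whole liver was checked against markers: the summed level of 6 hepatocyte genes was between 60502 and 109510 CPM in every liver. Clec4f, the gene whose promoter drives the receptor, was at 45.0 ± 6.94 CPM (SD, n = 3) in chow livers, 45.9 ± 2.55 (n = 4) in saline livers and 9.49 ± 3.98 (n = 4) in DT livers. DT replicate 2 stood apart from the other DT livers in the markers of several cell types, which are given beside Scd2 and in the closing section.

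Scd1 was by far the most abundant member in every liver. It read 1882, 2425 and 1526 CPM in chow replicates 1 to 3, 26974, 37209, 31277 and 26278 CPM in saline replicates 1 to 4, and 14866, 17191, 8122 and 15212 CPM in DT replicates 1 to 4. No group overlapped another, which held for 14.8% of tested genes with saline above chow, 14.8% with DT above chow and 9.97% with DT below saline livers. The saline livers were highest, the DT livers lay between, and DT replicate 3 was the lowest liver on western diet with alcohol. Scd1 alone took 0.131 to 0.207% of all counts in chow livers, 2.41 to 3.47% in saline livers and 1.03 to 1.98% in DT livers. By mean CPM it ranked 82 of the 17038 tested genes in chow livers and 3 in both other groups.

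Scd3 rose most steeply. It read 1.00, 0.696 and 1.04 CPM in chow livers, 20.3, 23.9, 19.8 and 22.7 CPM in saline livers, and 15.9, 9.90, 13.9 and 14.5 CPM in DT livers. Again the groups did not overlap, and DT replicate 2 was the lowest of the DT livers. Scd4 was the least abundant member, at 0.283, 0.266 and 0.300 CPM in chow livers (11 to 13 counts), 6.52, 6.24, 4.92 and 6.35 CPM in saline livers, and 2.97, 2.25, 1.20 and 2.21 CPM in DT livers. Its order was the same as for Scd1, with the DT livers between and DT replicate 3 the lowest of them.

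Scd2 had another order. It read 6.36, 4.56 and 3.67 CPM in chow livers, 19.1, 20.3, 24.9 and 17.5 CPM in saline livers, and 77.3, 11.7, 40.1 and 40.7 CPM in DT livers. All saline and DT livers were above the chow livers. DT replicates 1, 3 and 4 were above every saline liver, and DT replicate 2 was below every saline liver, so these 2 groups overlap, whereas 9.33% of tested genes were higher in DT than in saline livers without overlap. The spread within the DT group was a coefficient of variation of 63.3% for Scd2, against 28.5% for Scd1, 18.9% for Scd3 and 33.7% for Scd4.

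**Figure D1:**
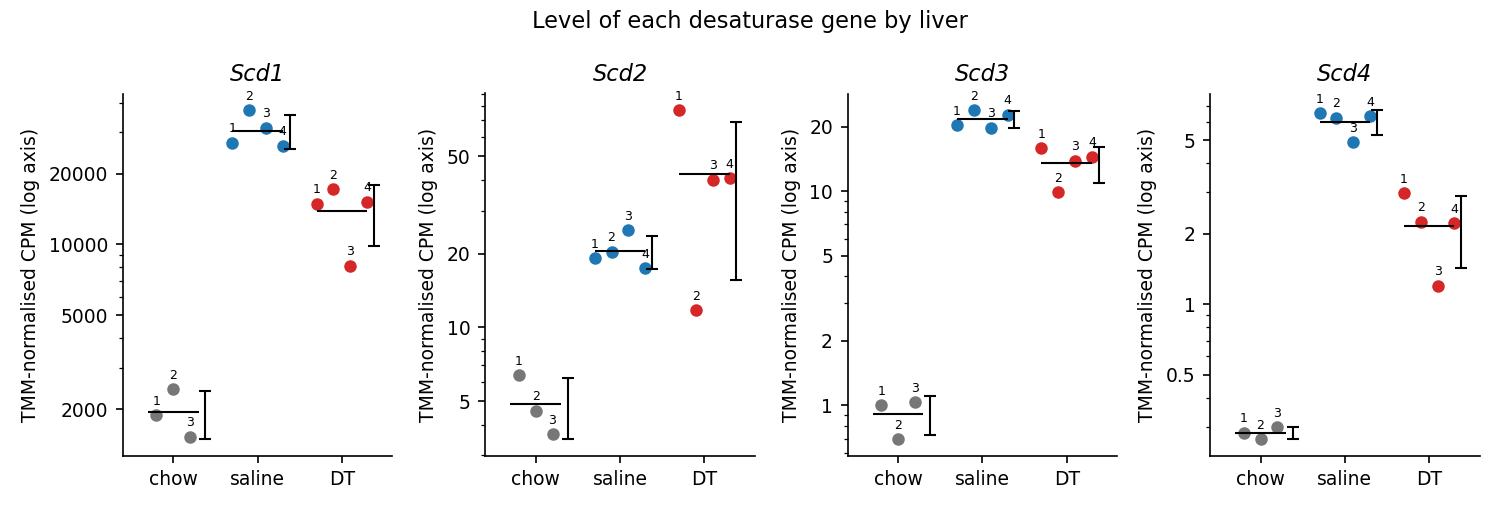
Level of the 4 desaturase genes in each liver, in TMM-normalised CPM on a log axis with its own range for each gene, for chow (n = 3), saline (n = 4) and DT livers (n = 4). Points are livers with their replicate number, horizontal lines are group means and bars are the SD; Scd1, Scd3 and Scd4 are highest in saline livers, and Scd2 is highest in DT replicates 1, 3 and 4 and low in DT replicate 2.

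Levels of different genes were compared per kilobase of annotated exon (CPM per kb). In chow livers the order was Scd1 at 398 ± 92.6 CPM per kb, Scd2 at 0.890 ± 0.251, Scd3 at 0.257 ± 0.0531 and Scd4 at 0.0751 ± 0.00450 (SD, n = 3), with no overlap between neighbours. In saline livers Scd3, at 6.10 ± 0.554 CPM per kb, stood above Scd2, at 3.74 ± 0.581 (n = 4), without overlap. In DT livers Scd2 ranged from 2.15 to 14.1 CPM per kb and Scd3 from 2.79 to 4.46, so their order depended on the liver. Scd4 stayed lowest in every group, at most 1.73 CPM per kb. Over all 11 livers Scd1 supplied between 99.3 and 99.9% of the counts of the 4 genes.

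Western diet with alcohol and saline was compared with chow to see how the family differs between livers under this diet and chow livers. All 4 members rose, where 5.58% of tested genes were called in either direction and 2.45% rose. These are changes in counts, which for the members other than Scd1 may include reads of Scd1, so they are not shown to be separate responses. The ratio of group means was 15.6 for Scd1, 4.20 for Scd2, 23.8 for Scd3 and 21.2 for Scd4. On the log2 scale Scd3 rose by 4.57 (SE 0.22, adjusted p = 2.18e-06) and had the smallest p of all tested genes. Scd4 rose by 4.40 (SE 0.34, adjusted p = 0.000125) and ranked 3, and Scd1 rose by 3.97 (SE 0.32, adjusted p = 0.000137) and ranked 6. Scd2 rose by 2.07 (SE 0.48, adjusted p = 0.0277).

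The call for Scd2 was near the threshold and held in 5 of 11 fits that each left out 1 liver. It ended without chow replicate 1, 2 or 3 (adjusted p = 0.0806, 0.114 and 0.109) and without saline replicate 1, 2 or 3 (0.0557, 0.0657 and 0.0704), while the log2 change stayed between 1.91 and 2.31. It also ended with limma-voom (adjusted p = 0.131) and with no filter on low counts (0.109). The calls for Scd1, Scd3 and Scd4 held in 11 of 11 fits that each left out 1 liver.

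DT livers were compared with saline livers to see how the family differs after toxin was given to receptor-bearing mice on the same diet. Scd1, Scd3 and Scd4 fell, where 21.9% of tested genes were called in either direction, 14.3% rose and 7.62% fell. Scd4 fell by 1.48 on the log2 scale (SE 0.25, adjusted p = 0.00624), which is a mean 2.78 times lower. Scd1 fell by 1.14 (SE 0.26, adjusted p = 0.0126), 2.20 times lower, and Scd3 fell by 0.68 (SE 0.16, adjusted p = 0.0148), 1.60 times lower. Scd2 had a mean 2.08 times higher in DT livers (log2 change 1.05, SE 0.41, adjusted p = 0.0840) and was not called.

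For Scd2 the comparison turned on 1 liver. Without DT replicate 2 the log2 change was 1.36 and was called (adjusted p = 0.00206), and without DT replicate 1 it was 0.61 (0.257). It was also called with DESeq2 (1.07, adjusted p = 0.0371) and with scaling to total counts (1.44, adjusted p = 0.0339). That scaling, which shifts the median log2 change of all tested genes from 0.0216 to 0.357, ended the call for Scd3 (log2 change -0.32, adjusted p = 0.255), and all 4 members kept their direction. In bulk tissue, fewer cells of a type and less RNA per cell cannot be told apart.

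DT livers remained above chow livers for all 4 members, where 23.0% of tested genes were called, 14.8% rose and 8.16% fell. The log2 change was 2.83 (SE 0.30, adjusted p = 0.000903) for Scd1, 3.13 (SE 0.50, adjusted p = 0.00363) for Scd2, 3.89 (SE 0.21, adjusted p = 9.99e-06) for Scd3 and 2.92 (SE 0.32, adjusted p = 0.000903) for Scd4. Scd3 again had the smallest p of all tested genes. The comparisons share livers, so their values stand side by side and are not independent of each other. All 4 calls held in 11 of 11 fits that each left out 1 liver.

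**Figure D2:**
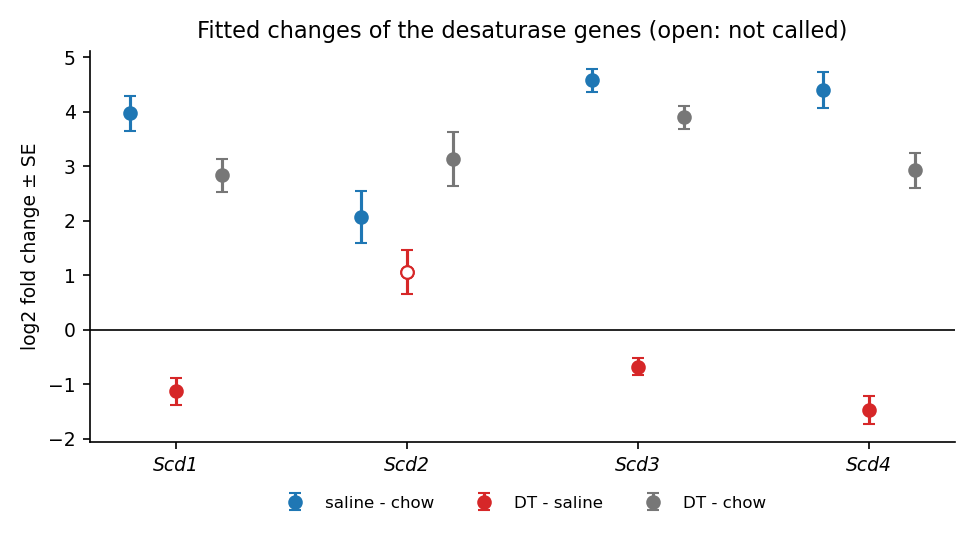
Log2 fold change of the 4 desaturase genes in the 3 comparisons of groups, as points with bars of 1 standard error from edgeR's quasi-likelihood fit, open where not called. Scd1, Scd3 and Scd4 lie below 0 for DT against saline livers and Scd2 lies above 0 without being called.

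The counts of the other members were also set relative to those of Scd1 in the same liver. Scd2 had 33.8, 18.8 and 24.1 counts per 10000 Scd1 counts in chow livers, 7.09, 5.47, 7.95 and 6.65 in saline livers, and 52.0, 6.83, 49.3 and 26.8 in DT livers. The chow and saline livers do not overlap, while DT replicate 2 lies among the saline livers DT replicate 4 lies within the chow range and DT replicates 1 and 3 lie above it. The mean log2 ratio of Scd2 to Scd1 was 1.89 lower in saline than in chow livers (exact two-sided permutation p = 0.05714, adjusted over 6 ratio tests 0.229). That p is the smallest that the two-sided form used here can give for 3 against 4 livers. It was 1.96 higher in DT than in saline livers (exact permutation p = 0.0857, adjusted 0.229), and DT and chow livers differed by 0.07 (exact permutation p = 0.914). None of these passed the threshold. With these group sizes and this form of two-sided p, no ratio test could fall below 0.05 after adjustment over 6 tests. No conclusion is drawn from that.

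Scd3 had 5.34, 2.87 and 6.81 counts per 10000 Scd1 counts in chow livers, 7.52, 6.43, 6.33 and 8.65 in saline livers, and 10.7, 5.76, 17.1 and 9.52 in DT livers. The groups overlap in every comparison, and DT replicate 3, the liver with least Scd1 among the DT livers, had the highest ratio. The log2 ratio differed by 0.59 between saline and chow, 0.48 between DT and saline and 1.07 between DT and chow livers, with adjusted exact permutation p-values of 0.257, 0.274 and 0.229. These tests could not reach the threshold either. Scd4 ranged from 1.10 to 2.42 counts per 10000 Scd1 counts over all livers, with every group overlapping the others. Scd1 reads assigned to Scd4 at that rate would equal its whole count. Whether Scd1 reads entered the counts of Scd4 or of Scd3 was not tested.

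**Figure D3:**
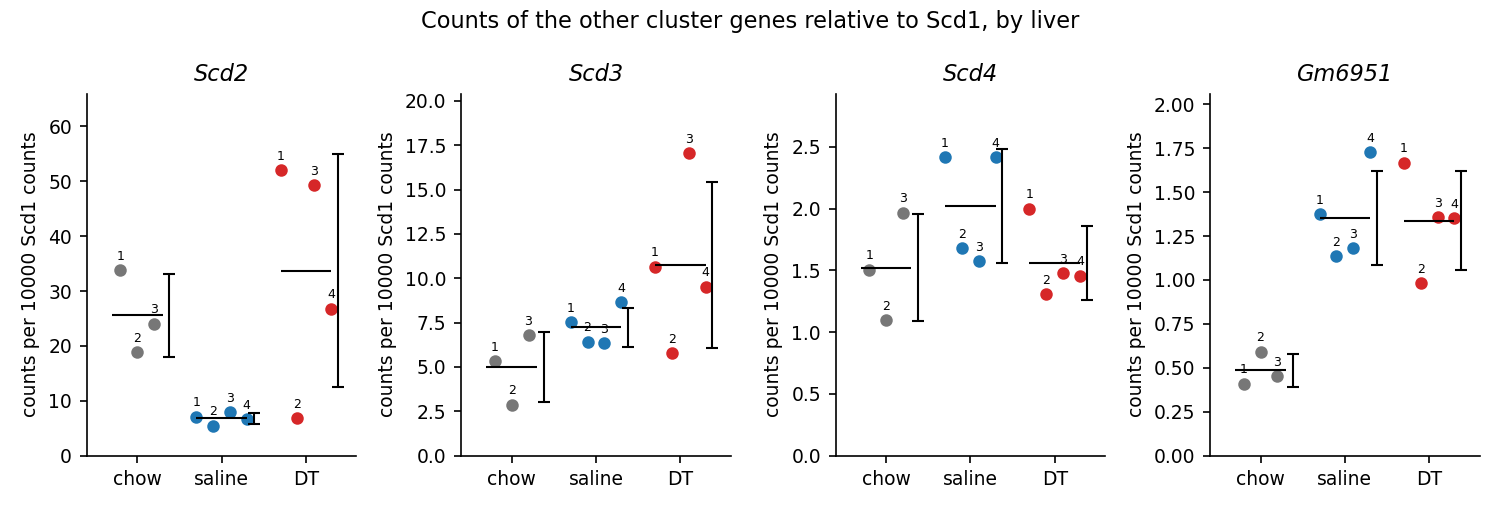
Counts of Scd2, Scd3, Scd4 and the neighbouring pseudogene Gm6951 per 10000 Scd1 counts in each liver (linear axes from 0, own range per panel); points are livers with their replicate number, lines are group means and bars the SD. Scd2 is lowest in the 4 saline livers and in DT replicate 2, and Gm6951 is lower in the 3 chow livers than in all others.

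Over the 11 livers, log2 CPM of Scd1 correlated with Scd4 at r = 0.983, with Scd3 at 0.953 and with Scd2 at 0.690. These livers share the group differences given here. After subtracting each group's mean, r was 0.583 for Scd4, -0.386 for Scd3 and -0.153 for Scd2, and Scd2 with Scd3 had the highest value, 0.652. Within groups the members thus did not rank the livers alike.

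The genes lie side by side on chromosome 19 (order from the GENCODE M21 annotation): Scd3, Scd2 and Scd4 on the plus strand, then Scd1 on the minus strand. Between Scd3 and Scd2 lies Gm6951, annotated as an unprocessed pseudogene and picked for its position after its values were seen. It had 3, 7 and 3 counts in chow livers, 182, 208, 202 and 213 counts in saline livers, and 166, 81, 78 and 155 counts in DT livers. Its level thus followed the order of Scd1, Scd3 and Scd4, at 4.04 ± 0.413 CPM (SD, n = 4) in saline and 1.83 ± 0.584 (n = 4) in DT livers, a fall of 1.14 on the log2 scale (adjusted p = 0.0146). In 2 chow livers it was at 3 counts, the limit taken for detection, so no fold against chow is given.

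Gm6951 shares sequence with the members: 9.88% of the runs of 50 bases in its 818-base transcript occur in Scd1 and 9.75% in Scd3. Its counts per 10000 Scd1 counts were 0.411 to 0.591 in chow livers and 0.981 to 1.73 in the other livers. Whether reads of the members entered its count was not tested.

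**Figure D4:**
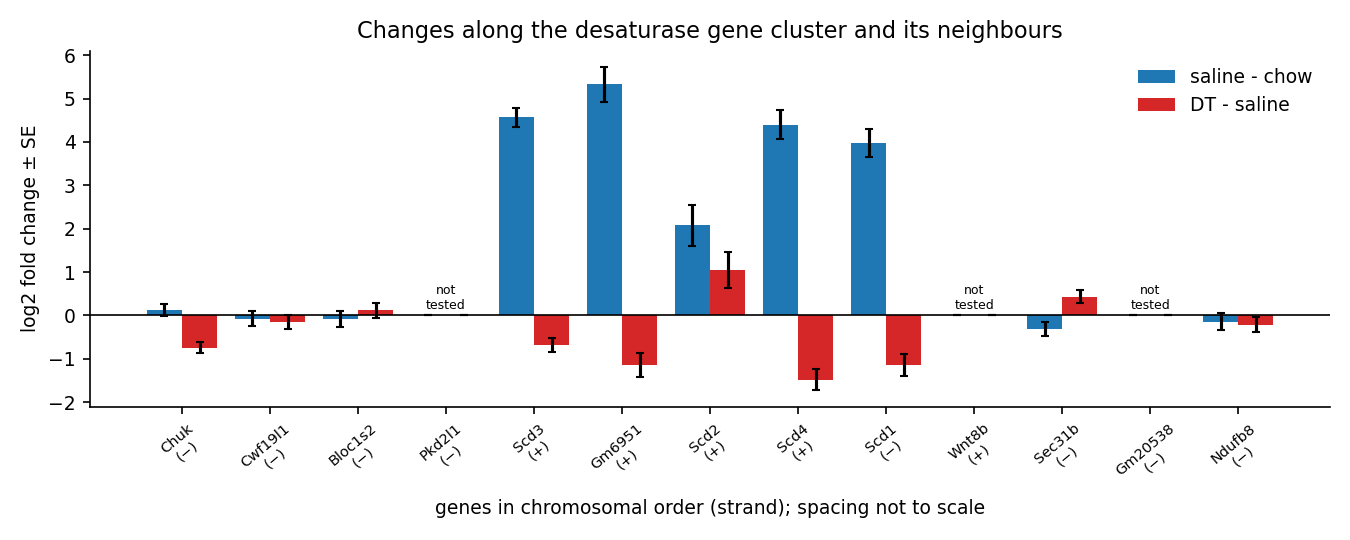
Log2 fold change (bars, with lines of 1 standard error) of the genes in and around the desaturase cluster, in their order along the chromosome, without distances, for saline against chow and for DT against saline livers. Untested genes are marked and carry no bar. The 4 members and Gm6951, whose bar against chow is a fitted value from 3 to 7 chow counts, stand at 2.07 or more for saline against chow, and the 5 tested flanking genes lie between -0.31 and 0.13.

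The genes beside the cluster were described for comparison. Of 4 protein-coding genes on each side, 5 could be tested (Chuk, Cwf19l1, Bloc1s2, Sec31b and Ndufb8). None was called between saline and chow livers by edgeR, where 5.58% of all tested genes were called, and none had an unadjusted p under 0.05. With 5 genes and that share, no call is the usual outcome, so no conclusion is drawn on how far the change extends. Between DT and saline livers Chuk, which encodes a kinase of the NF-kappa-B pathway, fell by 0.75 (SE 0.13, adjusted p = 0.00633). The other 4 were not called, where 14.3% of all tested genes rose and 7.62% fell. The antisense gene Gm50323, which overlaps Scd3, had 5 counts over all livers. Without a stated strand setting, reads of the pair cannot be told apart where they overlap.

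The regulators of lipogenic transcription, 17 genes, moved in both directions. The counts of this and the other lists are to be read beside the shares of all tested genes. For saline against chow 2.45% rose and 3.13% fell, for DT against saline 14.3% and 7.62%, and for DT against chow 14.8% and 8.16%. Between saline and chow livers 3 of the 17 rose and 2 fell (median log2 change -0.01, against 0.00 over all tested genes). Srebf1, which encodes the SREBP-1 proteins, read 41.6, 33.0 and 36.0 CPM in chow livers and 193, 408, 407 and 243 CPM in saline livers, a rise of 3.09 (SE 0.45, adjusted p = 0.00381). Pparg, a lipogenic nuclear receptor, rose by 1.93 (SE 0.15, adjusted p = 0.000125) and Ppara, the receptor that drives fatty acid oxidation, by 0.75 (SE 0.17, adjusted p = 0.0224). Srebf2, the regulator of cholesterol synthesis, fell by 1.00 (adjusted p = 0.00171) and Insig2, which retains SREBP in the endoplasmic reticulum, fell by 0.92 (adjusted p = 0.0329).

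From saline to DT livers 2 of the 17 regulators fell and none rose (median -0.15, all tested genes 0.02), where 7.62% of tested genes fell and 14.3% rose. Pparg fell by 0.70 (adjusted p = 0.00727), from 18.7 to 23.6 CPM in saline livers to 11.1 to 13.4 CPM in DT livers, without overlap. Ppara fell by 1.61 (adjusted p = 0.000871). Srebf1 read 154, 366, 120 and 109 CPM in DT livers, where DT replicate 2 lay among the saline livers and the other 3 lay below them. Its log2 change was -0.74 (adjusted p = 0.169). With total count scaling 4 regulators rose and 1 fell, and without DT replicate 2, 1 rose and 5 fell. The LXR genes Nr1h3 and Nr1h2 were not called in any comparison.

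Among 12 enzymes of fatty acid synthesis up to the desaturase, 3 rose between saline and chow livers and none fell (median 0.70). Elovl6, which elongates palmitate to stearate and so makes the substrate of the desaturases, rose by 2.24 (SE 0.51, adjusted p = 0.0265). Acaca, the cytosolic acetyl-CoA carboxylase, rose by 1.47 (SE 0.28, adjusted p = 0.0119), and Acly, ATP citrate lyase, by 0.56 (SE 0.15, adjusted p = 0.0496). Fasn, fatty acid synthase, was at 137 ± 27.2 CPM (n = 3) in chow and 304 ± 204 CPM (n = 4) in saline livers and was not called (adjusted p = 0.233). DESeq2 called 6 of the 12 higher, total count scaling 5 and a fit with no filter on low counts 1, none with a lower enzyme, and the saline and chow livers alone gave 6 higher and 1 lower. No enzyme of this list was called in the fits without chow replicate 1, 2 or 3, whereas 6 rose and 1 fell in the fit without DT replicate 2.

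Between DT and saline livers 1 of the 12 enzymes fell and none rose (median -0.06), where 7.62% of tested genes fell and 14.3% rose. The enzyme that fell was Acss2, acetyl-CoA synthetase, by 0.57 (SE 0.14, adjusted p = 0.0153). Elovl6 read 29.1, 214, 82.6 and 124 CPM in DT livers and had a log2 change of -0.51 (adjusted p = 0.414). Acaca, with a change of 0.05 (adjusted p = 0.907), and Fasn, with 0.52 (adjusted p = 0.442), were not called either. With total count scaling 3 of the 12 rose and none fell.

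Desaturases and elongases that act on other substrates were counted in the same way. Between saline and chow livers none of the 11 tested was called by edgeR, DESeq2 or limma-voom (median 0.21); by unadjusted p, 1 was under 0.05 in edgeR, the delta-6 desaturase Fads2. In a fit of the saline and chow livers alone, 1 of 9 tested rose and 1 fell. In DT against saline livers 4 rose and 3 fell, whereas limma-voom called 1 higher and 3 lower and total count scaling 4 higher and 1 lower. Fads2 fell by 0.82 (adjusted p = 0.0157), and the elongases of polyunsaturated fatty acids Elovl2 and Elovl5 fell by 0.88 and 0.72 (adjusted p = 0.00678 and 0.0252). Fads3, a sphingolipid desaturase, rose by 2.50 (adjusted p = 0.00718), with 12.0, 2.37, 8.40 and 12.1 CPM in the DT livers. Elovl7, an elongase, rose by 3.34 (adjusted p = 0.0218), with 4.13, 0.167, 2.92 and 6.52 CPM. For both genes, as for Scd2, DT replicate 2 was the lowest DT liver. Degs2 rose by 3.02 (adjusted p = 0.0220) and Elovl1 by 0.49 (adjusted p = 0.0456). Degs2 was at 0.128 ± 0.0524 CPM in saline livers and 0.125 CPM in DT replicate 2, near the limit of detection. The size of its change is therefore uncertain.

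For electron supply, 5 genes of cytochrome b5 and its reductases were tested. None was called by edgeR or limma-voom between saline and chow livers. These are transcript levels, and the supply itself and which of these genes serve the desaturases were not tested. DESeq2 called 1 of them, and 2 had an unadjusted p under 0.05 in edgeR (Cyb5r3 and Cyb5b). In DT against saline livers Cyb5b fell by 0.73 (adjusted p = 0.0230), Cyb5r4 fell by 0.44 (adjusted p = 0.00867) and Cyb5r1 rose by 1.08 (adjusted p = 0.0125). Cyb5a, the microsomal cytochrome b5, was at 1009 ± 68.7 CPM (n = 4) in saline and 631 ± 270 CPM (n = 4) in DT livers and was not called (adjusted p = 0.0589). DESeq2 called 4 of the 5 lower and 1 higher, and total count scaling left 1 higher and none lower.

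Of 16 genes that esterify or store the products, 3 rose between saline and chow livers. Mogat1, a monoacylglycerol acyltransferase, rose by 3.71 (SE 0.51, adjusted p = 0.00291), and the lipid droplet proteins Cidec and Cidea rose by 1.44 (adjusted p = 0.00828) and 9.07 (adjusted p = 0.0364); Cidea was at 0.0462 ± 0.00529 CPM in chow livers, near the limit of detection, so its fitted change is no measure of size. From saline to DT livers 3 fell and none rose: Gpam by 0.69 (adjusted p = 0.0136), Plin2, the droplet coat protein, by 0.67 (0.0189) and Acsl1, an acyl-CoA synthetase, by 1.30 (0.0150). Without DT replicate 2, 8 fell and 2 rose, and with total count scaling 2 fell and 3 rose.

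Other targets of LXR and SREBP gave a mixed count. Between saline and chow livers the LXR-driven sterol transporters Abcg5, Abcg8 and Abca1 rose by 2.23, 1.60 and 1.13 (adjusted p = 0.000443, 0.00480 and 0.0200), while Sqle, a cholesterol synthesis enzyme, fell by 5.77 (adjusted p = 0.00413); the other 10 of 14 were not called. Between DT and saline livers these transporters fell by 0.68, 0.91 and 0.94 (adjusted p = 0.0268, 0.0157 and 0.0140), together with Lpcat3. Sqle rose by 3.05 (adjusted p = 0.0202). Sqle was at 0.222 ± 0.163 CPM in saline livers, near the limit of detection, so the size of both its changes is uncertain. The fit without DT replicate 3 called 2 of the 14 lower and none higher, and total count scaling called 2 lower and 2 higher.

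Against chow, DT livers had 7 of the 12 synthesis enzymes higher and 1 lower, including Fasn, which rose by 1.67 (SE 0.53, adjusted p = 0.0421). Of all tested genes 14.8% rose and 8.16% fell in this comparison. Of the regulators 3 rose and 5 fell, with Srebf1 higher by 2.35 (SE 0.44, adjusted p = 0.00568), but total count scaling gave 8 higher and 2 lower and upper quartile factors 3 and 3. Of the other desaturases and elongases 4 rose and 1 fell, of the electron supply genes 1 rose, of the esterification genes 4 rose and 4 fell, and of the LXR and SREBP targets 3 rose and 3 fell. With total count scaling the LXR and SREBP targets had 6 higher and 2 lower and the esterification genes 5 higher and 2 lower, and limma-voom gave 1 higher and 2 lower of the other desaturases and elongases. Without chow replicate 1, 2 or 3 the synthesis list had 4 higher and 1 lower, and without DT replicate 2 it had 4 higher and 3 lower. It had 4 higher and 1 lower with limma-voom or no filter.

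The level of the members was set beside markers of the cell types in liver. The 6 hepatocyte markers summed to 88865 to 109510 CPM in chow, 75436 to 90095 CPM in saline and 60502 to 81225 CPM in DT livers, and none of the 6 was called between saline and chow livers (3 had an unadjusted p under 0.05). Between DT and saline livers none was called by edgeR or had an unadjusted p under 0.05. Most of the hepatocyte sum was Alb, at 70520 CPM on average in chow, 62360 CPM in saline and 54130 CPM in DT livers. Relative to 1000 CPM of these markers, Scd1 was at 13.9 to 25.0 CPM in chow, 326 to 413 CPM in saline and 125 to 251 CPM in DT livers, again without overlap. On this scale, added after seeing the data, Scd1 was 0.96 and Scd4 1.33 lower in DT than in saline livers on the log2 scale (exact permutation p = 0.02857 for each, the smallest that 4 against 4 livers allow). Scd3 was 0.49 lower (exact permutation p = 0.05714) with overlapping groups, and Scd2 was 0.99 higher (exact permutation p = 0.143).

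Markers of some other cells were high in the DT livers in which Scd2 was high. Between DT and saline livers 14.3% of all tested genes rose and 7.62% fell. Cholangiocyte markers summed to 3.88 to 7.72 CPM in saline livers, 56.8 to 95.8 CPM in DT replicates 1, 3 and 4, and 8.89 CPM in DT replicate 2, and 6 of 6 rose. Stellate cell and fibroblast markers summed to 140 to 287 CPM in saline livers, 629 to 748 CPM in those 3 DT livers and 235 CPM in DT replicate 2, and 8 of 8 rose. Monocyte and macrophage markers summed to 62.8 to 182 CPM, 289 to 395 CPM and 137 CPM in the same order, and 4 of 6 rose. Cell cycle markers summed to 5.53 to 9.93 CPM, 25.3 to 28.1 CPM and 7.51 CPM, and 3 of 6 rose. Kupffer cell markers fell, 6 of 6, from 265 to 370 CPM in saline to 111 to 184 CPM in DT livers. Endothelial markers summed to 302 to 316 CPM in saline and 232 to 254 CPM in DT livers, and 2 of 6 fell. Lymphocyte markers summed to 4.17 to 7.78 CPM in saline and 4.74 to 9.78 CPM in DT livers, and 1 of 6 rose. In chow livers, where Scd2 was lowest, the cholangiocyte sum was 9.91 to 18.4 CPM, above that of every saline liver. Most of that sum was Sox9, at 10.8 CPM on average in chow and 3.06 CPM in saline livers. The other cholangiocyte markers were at most 0.994 CPM on average in either group, and none of the 6 was called between these groups. The part of these cells in the Scd2 level was not tested.

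**Figure D5:**
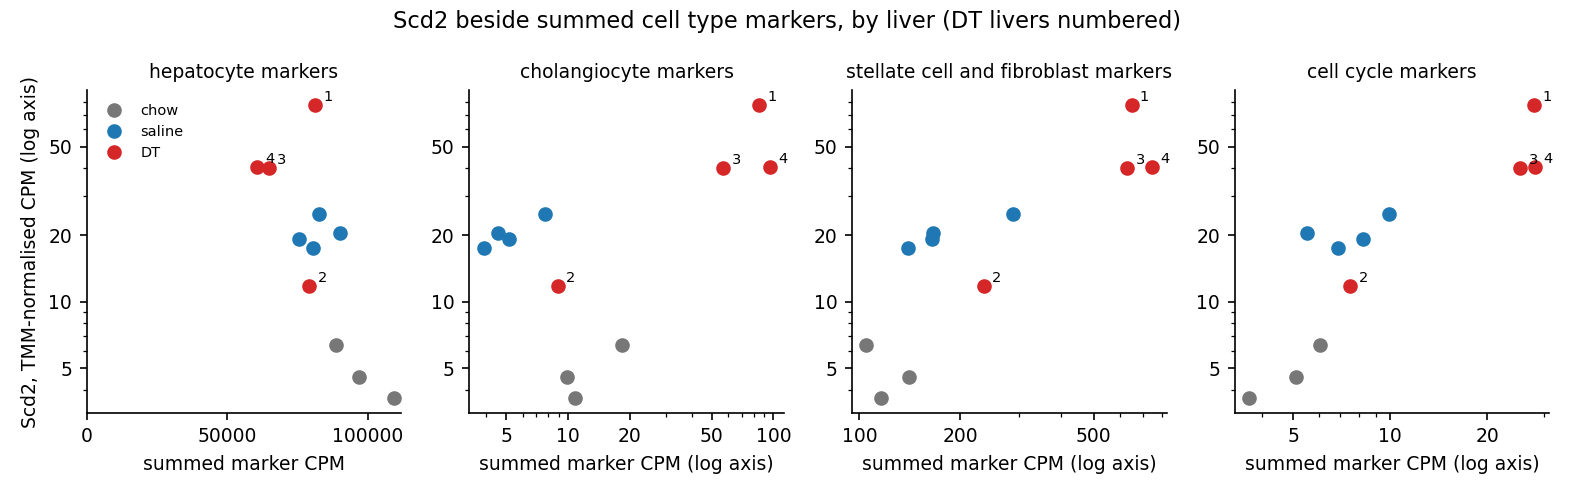
Scd2 (TMM-normalised CPM, log axis) in each of the 11 livers against the summed CPM of hepatocyte (linear axis), cholangiocyte, stellate cell and fibroblast, and cell cycle markers (log axes). DT livers carry their replicate number; DT replicates 1, 3 and 4 lie at high Scd2 and high cholangiocyte, stellate and cell cycle sums, apart from DT replicate 2.

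Markers of fat tissue and of the daily clock were also summed. Of 5 adipocyte markers only Cfd was tested, which rose between saline and chow livers (adjusted p = 0.0364) and was not called for DT against saline (0.0934) or DT against chow (0.0731). The list summed to 0.0773 to 0.508 CPM in chow, 9.03 to 61.3 CPM in saline and 0.0597 to 13.1 CPM in DT livers. The defining markers Lep and Retn were at 0 in all chow and saline livers, and Adipoq was at 0.0289 ± 0.0357 CPM in saline livers (n = 4), so the sum in saline livers, where Cfd was at 29.4 CPM on average, is nearly all Cfd. Scd1 expression is known to follow feeding, and no time of day for the harvest is stated in the labels. The 12 clock genes summed to 427 to 569 CPM in chow, 702 to 804 CPM in saline and 339 to 544 CPM in DT livers. Between saline and chow livers 3 of them rose and 2 fell (Dbp by 3.03 up, Arntl by 2.33 down on the log2 scale, adjusted p = 0.0433 and 0.0269), and between DT and saline livers 3 rose and 5 fell. Between DT and chow livers 1 of the 12 clock genes rose and none fell (median -0.05). The part of harvest time or feeding in the Scd1 levels was not tested.

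Genes with the pattern most like Scd1 over the 11 livers, by Pearson r of log2 CPM among 9765 candidates whose mean log2 CPM was 2 or more, were Arsb (r = 0.981), Tnfrsf19 (0.976), Abcg5 (0.955), Bst2 (0.948) and Tusc3 (0.947). Tnfrsf19, a receptor of the TNF family, was at 2.58, 14.9 and 11.6 CPM on average in chow, saline and DT livers. After subtraction of group means r was 0.856 for Arsb, a lysosomal sulfatase, and 0.872 for Tnfrsf19, and was 0.192 for Abcg5. Scd4 and Scd3, which were not candidates, lay at 0.983 and 0.953.

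Most like Scd2 were Tgm2 (r = 0.978), G6pdx (0.972), Atpif1 (0.968), Mcm3 (0.968) and Naip2 (0.966). Tgm2, a transglutaminase, was at 107, 193 and 259 CPM on average in chow, saline and DT livers. G6pdx, glucose-6-phosphate dehydrogenase and a source of NADPH, was at 4.33, 7.05 and 9.53 CPM, and Mcm3, a part of the replicative helicase, at 3.16, 4.74 and 5.37 CPM. After subtraction of group means r was between 0.866 and 0.953 for these 5 genes, which were chosen for their r over the same livers.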

How the data were processed

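RNA was sequenced from 11 whole livers in 3 groups. The submitters' processing notes list FastQC, STAR and featureCounts with the build GRCm39. Their versions and settings, including strand, read mates and multi-mapping reads, are not given in the sources used here. The authors deposited unnormalised counts, 1 column per liver. The extraction text describes sorted CD45-positive cells, whereas the sample labels name whole liver, which was used. Low counts (1 to 19) were even in 76.1 to 81.1% of cases, so halved counts were tried.

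Genes were kept with filterByExpr, scaled by TMM and tested with edgeR 4.0.16 (limma 3.58.1, R 4.3.3), quasi-likelihood, robust, two-sided, 1 mean per group over all 11 livers, common biological coefficient of variation 30.1%. Benjamini-Hochberg adjustment ran over all 17038 genes in each comparison at 0.05. Log2 CPM used a prior count of 2. Ratios to Scd1 (0.5 counts added) were tested by exact permutation (scipy 1.17.1). Coding sequences were aligned with MAFFT 7.526. Exon lengths, transcripts and gene order came from GENCODE M21 (GRCm38), an earlier build than that of the alignment, so no gene coordinates are given. Fits were tested on simulated data. No 2 livers were copies of each other.

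Alternatives were RLE, upper quartile and total count scaling, other filters, DESeq2 1.42.0, limma-voom, only the compared groups, halved counts, the replicate number as a block, and each liver left out. Scaling to hepatocyte markers was added after seeing the data. The members and gene lists were chosen with earlier results of these data known. Genes named are the 4 members, up to 4 of each pathway list with the smallest p and all members of a list where 5 or fewer went 1 way, not all of which are given, and the 5 genes most like Scd1 and Scd2. Fasn, Elovl6, Cyb5a, Nr1h3, Nr1h2, Gm6951 and the flanking genes are given for their roles or positions and were chosen after values were seen.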

Additional observations from a re-analysis of the deposited data

Results flagged for a closer look

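Of 34 groups of 4 livers checked for a liver far from the other 3, 2 had one, where chance gives about 1 in 20. Both were DT replicate 2, the DT liver with the lowest Scd2. Its cell cycle markers summed to 7.51 CPM, and the other DT livers lay at 25.3 to 28.1 CPM. Its adipocyte markers summed to 13.1 CPM, and the other DT livers lay at 0.0597 to 1.67 CPM. Scd1 in this liver, 17191 CPM, was the highest of the DT livers, and the fits without it are given beside Scd2.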

How the results depend on the processing

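Scd1 and Scd4 kept their direction and their call in all 3 comparisons under every alternative that gave an adjusted p. So did Scd2 and Scd3 for DT against chow and Scd3 for saline against chow. Scaling to hepatocyte markers, run for DT against saline only, gave an unadjusted exact permutation p and so no call. Without 1 liver, for saline against chow, DT against saline and DT against chow in turn, the log2 change ran from 3.82 to 4.16, -1.26 to -0.94 and 2.68 to 3.05 for Scd1, from 1.91 to 2.31, 0.61 to 1.36 and 2.68 to 3.44 for Scd2, from 4.41 to 4.68, -0.75 to -0.56 and 3.72 to 4.02 for Scd3, and from 4.35 to 4.51, -1.66 to -1.26 and 2.74 to 3.15 for Scd4. Scd2 for saline against chow was 2.09 with no filter on low counts (adjusted p = 0.109) and 2.11 with limma-voom (0.131), neither past the threshold. For DT against saline, Scd2 passed with total count scaling (1.44) and DESeq2 (1.07), and Scd3 no longer passed with total count scaling (-0.32). Scaled to hepatocyte markers, Scd3 differed by -0.49 (unadjusted exact permutation p = 0.05714). The cause was not tested.

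The number of called genes for saline against chow (950) was 1831 with DESeq2 and 3105 with only the compared groups. For DT against saline (3734) it was 5629 with total count scaling and 2303 with only the compared groups, and for DT against chow (3919) it was 6536 and 2089. Without 1 liver these counts ran from 287 to 1924, from 1786 to 6824 and from 1786 to 6834, with the highest value of each without DT replicate 2. With total count scaling 5183 genes were higher and 446 lower for DT against saline, in place of 2436 and 1298, 6197 and 339 for DT against chow, in place of 2528 and 1391, and 593 and 292 for saline against chow, in place of 417 and 533; the median log2 change of all genes was then 0.357, 0.444 and 0.127. With upper quartile factors the split was 2892 and 928 for DT against saline and 2881 and 834 for DT against chow.

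Without 1 liver the log2 ratio of Scd2 to Scd1 ran from -2.09 to -1.66 for saline against chow, 1.63 to 2.60 for DT against saline and -0.26 to 0.72 for DT against chow; the last turned to -0.26 without DT replicate 1, -0.23 without DT replicate 3 and -0.13 without chow replicate 2. That of Scd3 to Scd1 ran from 0.23 to 0.85, 0.22 to 0.74 and 0.71 to 1.33. Replicate numbers did not pair the livers: the 10 pairs of equal number had r from -0.164 to 0.182, and 5 of 11 livers correlated best with their own number. With the replicate number as a block, 559 genes were called for saline against chow and 2210 for DT against chow, and no call of a member changed. The depth limits Scd4 and Gm6951 in chow livers, at 13 counts or fewer per liver.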
